A study of Rattus norvegicus with 14 samples.

Results

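Rats were trained on a treadmill for 1 month or for 3 days, and gene expression in their heart (left ventricle) and soleus muscle was compared between these durations. The comparison used the 8 exercised samples of the 14 in the series, 4 long and 4 short. They were chosen by their titles, Ex and ExAc for long training and 3dex and 3dexac for short training. Ex and 3dex animals trained at 24°C. ExAc and 3dexac animals trained at 24°C and were also acclimated to heat at 34°C, for 1 month and for 3 days respectively. All 8 samples shared the exercise itself, and the control and heat-only samples were not used. Each combination of tissue, heat and duration was 1 sample, which gave 4 matched pairs of a long and a short sample, namely heart and soleus, each with and without heat. The labels give no strain, age or sex. They state that RNA was made into 3 pools per group and mention 6 animals, without saying whether the 6 were per pool or in all. The deposited files hold 1 value per probe and sample.

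Endurance training acts on both muscles studied here. The left ventricle pumps blood to the body and adapts to training with changes in filling, wall growth and energy supply. The soleus is a calf muscle made mostly of slow, fatigue-resistant fibres that carry posture and running. The first bouts of exercise are known to set off transient gene responses, whereas weeks of training are known to build lasting changes such as more mitochondria and capillaries. Heat acclimation is prolonged exposure to moderate heat, which by itself alters the heart.

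The array carried 1185 probes, 702 with identifiers that begin with R and 483 with RG. No source used here names the gene behind an identifier, and a search of the RefSeq gene table matched 0 identifiers, so the results are given by probe. The tissue labels could therefore not be set against marker genes. A probe was called measured in a sample at a deposited intensity of 1200 or more. No lower value occurs in these 8 samples, and the other cells are empty. The sources used here do not say whether an empty cell is always a weak spot or can be a lost one. All 8 samples shared 416 measured probes, and 61 probes were measured in none. The highest values lay between 35976 and 58576, and the 10 brightest probes held 7.32% to 8.97% of the summed intensity. The short heated soleus sample stood apart, with the fewest probes measured and the lowest median intensity over the 416 common probes. The numbers of probes measured, and the detection patterns over both tissues, are given with and without its pair.

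More probes were measured after 1 month than after 3 days of training in 4 of 4 pairs. In heart, 752 probes were measured after long and 711 after short training without heat, and 747 and 692 with heat. In soleus, the counts were 945 and 755 without heat, and 897 and 623 with heat. The 2 long soleus samples had the highest counts of the 8, and the short heated soleus sample the lowest. The ranges of the 4 long and 4 short samples overlapped, because the short unheated soleus sample lay above both long heart samples. The mean was 835 ± 101 (SD, n = 4) after long and 695 ± 55 (SD, n = 4) after short training. The mean difference within pairs was 140 ± 112 probes (SD, n = 4 pairs; exact permutation within pairs, two-sided, p = 0.125). That is the smallest p that 4 pairs allow. Without the heated soleus pair the mean difference was 95.3 probes. The difference came to 41 and 55 probes in the heart pairs and to 190 and 274 in the soleus pairs, a contrast between tissues that was not tested. In these bulk samples, fewer cells of a type and less RNA per cell cannot be told apart.

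**Figure D1:**
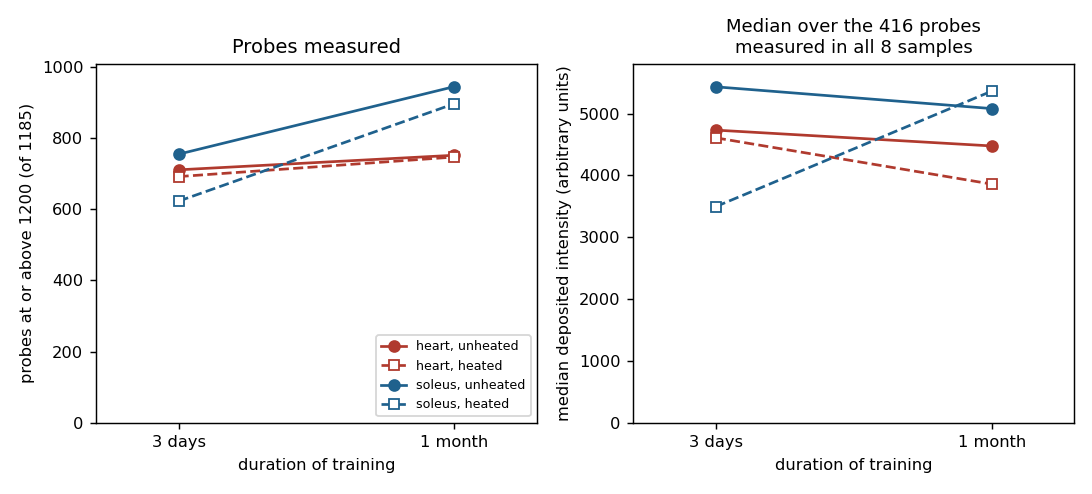
Left, number of probes at or above 1200; right, median deposited intensity over the 416 probes measured in all samples. Each point is 1 sample and each line a pair matched on tissue and heat; all 4 lines rise on the left, from 623 to 897 in heated soleus at the steepest, while on the right only that pair rises.

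Overall brightness did not move with these counts in 3 of the 4 pairs. The median deposited intensity over the 416 common probes was 4476 after long and 4732 after short training in unheated heart, and 3859 and 4607 in heated heart. In unheated soleus it was 5080 after long and 5431 after short training. In heated soleus it was 5362 after long and 3496 after short training, so there the brighter array was also the one with more probes. As a log2 ratio of long over short the medians differed by 0.05 ± 0.39 (SD, n = 4 pairs; exact permutation within pairs, two-sided, p = 1). Without the heated soleus pair the mean ratio turned to -0.14.

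The probes measured in only 1 sample of a pair were mostly dim. In unheated heart, 121 probes were measured only in the long sample, with a median deposited intensity of 1636, and 80 only in the short sample, with a median of 1811. In heated heart these were 114, with a median of 1756, and 59, with a median of 1720. In unheated soleus 247 probes were measured only after long training, at a median of 1785, and 57 only after short training, at a median of 1814. In heated soleus the counts were 337, at a median of 1965, and 63, at a median of 2374. In 3 of 4 pairs the short-only probes had the higher median. These medians ran from 1636 to 2374, against the limit of 1200, with the highest for the short-only probes of heated soleus. Of the long-only probes, 3 to 49 per pair reached 3000. Of the short-only probes 4 to 20 did, with 20 of the 63 in heated soleus.

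The excess after long training therefore depended on the limit. At an intensity of 2000 or more, 552 probes remained after long and 560 after short training in unheated heart, and 536 and 557 in heated heart. In soleus 668 and 610 remained without heat, and 686 and 448 with heat. The mean difference at that limit was 66.8 probes, and long training had the higher count in 2 of 4 pairs. Without the heated soleus pair it was 9.67 probes, with 1 of 3 pairs higher. At 3000 the mean difference was 31.8, and long training had the higher count only in the heated soleus pair, whose short sample was dim. Without that pair the direction turned, to -22 probes with 0 of 3 pairs higher. Scaling each sample to a common median of the 416 probes changed this picture. At the lowest limit that could then be applied to every sample, 1573, the counts were 666 and 629 in unheated heart and 719 and 637 in heated heart. In soleus they were 758 and 636 without heat, and 716 and 623 with heat, so that 4 of 4 pairs kept the direction. The mean difference was then 83.5 probes, and 80.3 without the heated soleus pair. At a scaled limit of 2000 it was 45.5, and 39 without that pair, with 4 of 4 pairs higher. At a scaled limit of 3000 it was 13.2, with 3 of 4 pairs higher and unheated soleus in the opposite direction, at 381 after long and 385 after short training.

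The direction can be followed in single probes, which are part of the same counts. In all, 9 probes were measured in all 4 long samples and in no short sample (0.759% of 1185). No probe showed the reverse, measured in all 4 short and in no long sample (0%). Without the heated soleus pair, 13 probes were measured in all 3 long and no short samples and 2 showed the reverse. Probe R673 had a deposited intensity of 2685 in unheated and 1875 in heated heart, and of 2471 in unheated and 2542 in heated soleus after long training. It was not measured in any short sample. Probe RG263 was measured at 2326 and 1512 in heart and at 2198 and 2475 in soleus after long training without and with heat, and again in no short sample. Both probes are dim. Their empty cells in the short samples say only that no value of 1200 or more was recorded.

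**Figure D2:**
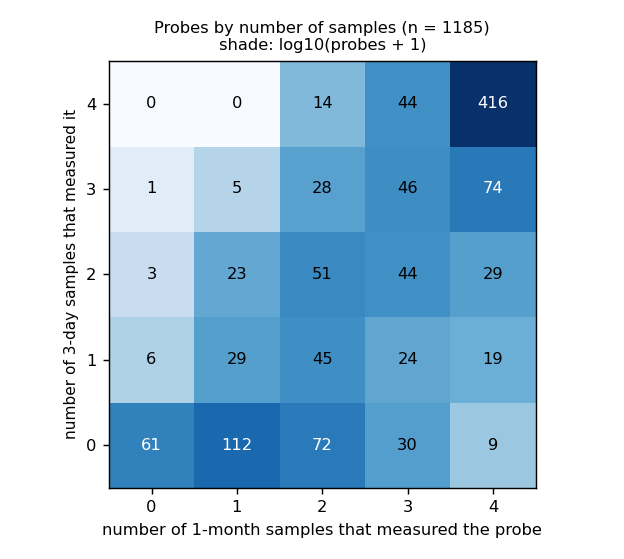
Number of probes by how many of the 4 long samples (horizontal) and of the 4 short samples (vertical) measured them; the shade is log10 of the count plus 1. The lower right corner is fuller than the upper left: 9 probes lie at 4 long and 0 short samples and 0 at the reverse, and 74 lie at 4 long and 3 short against 44 at the reverse.

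Within soleus, 132 probes were measured in both long and in no short sample (11.1% of 1185), and 8 in both short and in no long sample (0.675%). The unheated soleus pair alone gave 247 and 57. In heart these counts were 28 (2.36%) and 11 (0.928%). The heart counts depended on the limit, being 22 and 18 at 2000 and 14 and 18 at 3000, where the direction turned. The soleus set was 53.4% of the 247 probes that were new in the unheated pair and 39.2% of the 337 that were new in the heated pair. The heart set was 23.1% of 121 and 24.6% of 114. Of these 121 and 114 heart probes, 33.1% and 39.5% were also new in unheated soleus, and 48.8% and 48.2% in heated soleus. Of the 247 and 337 soleus probes, 16.2% to 18.2% were also new in a heart pair. Of all 1185 probes, 121 and 114 were new in the heart pairs, and 247 and 337 in the soleus pairs. A share therefore starts out larger when the set it is matched to is a soleus pair. The shares do not rank the tissues by agreement, and they were not tested. The soleus pairs share no sample, and 385 probes were empty in both of their short samples. After scaling to a common median with the limit at 1573, the soleus counts came to 54 and 16 and the heart counts to 38 and 11. Scaling and the higher limit, applied together, kept the direction and moved the soleus counts by over 1.5 times.

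The 132 soleus probes had mean deposited intensities of 1251 to 3996 in the long soleus samples, with a median of 1933. Only 2 of them reached 3000 in both long samples, and 25 reached 2000 in both. In heart, 52 of the 132 were measured in none of the 4 samples, 15 in all 4 and 65 in some. The 28 heart probes ranged from 1392 to 2891, with a median of 1895. Of these 28, 20 were measured in both long soleus samples and 0 in none of the 4 soleus samples. In all 4 soleus samples 3 of the 28 were measured. For comparison, the long soleus samples measured 79.7% and 75.7% of all 1185 probes, and the 4 heart samples 58.4% to 63.5%.

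In the other direction the brightest probes of each tissue were as follows. R713 was measured in heart at 2403 and 2266 after short training without and with heat and in neither long heart sample. In soleus it was measured in all 4 samples, from 1824 to 4361. RG448 lay at 2448 and 1934 in the short heart samples and was empty in both long ones. In the long soleus samples it was measured at 1274 and 2040, and in the short unheated soleus sample at 1615. In soleus, RG177 was measured at 2941 and 1894 and RG391 at 3036 and 1441 after short training without and with heat, and both were empty in the long soleus samples. Both were measured in all 4 heart samples, long and short, RG177 from 1475 to 3078 and RG391 from 1379 to 2623. These 4 probes lay between 1441 and 3036 in the samples that define them, also near the limit.

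Detection varied along the order in which the files list the probes. That order is the same in all 8 files and is not that of the identifiers, and the sources used here do not say what it stands for, such as place on the array or class of gene. Divided into 15 blocks of 79 probes, the heart samples measured 8.86% to 13.9% of block 9. In soleus the short samples measured 16.5% and 11.4% of that block, and the long samples 55.7% and 68.4%. In the last block the long soleus samples measured 97.5% and 87.3%, and the short ones 57% and 45.6%. The long heart samples measured 92.4% and 70.9% of that last block against 63.3% and 50.6%. In the first block the order in unheated heart was opposite, at 41.8% after long and 81% after short training.

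Accordingly, the excess after long training lay mainly in the later parts of the files. Of the 132 soleus probes, 16 stood in the first 395 lines, 50 in the next 395 and 66 in the last 395. The 9 probes measured in all 4 long and no short samples were split as 0, 2 and 7. The long minus short difference in the first 395 lines was -16 and 3 probes in the heart pairs, without and with heat, and 21 and 25 in the soleus pairs. In the middle part it was 21 and 23 in heart and 66 and 141 in soleus. In the last part it was 36 and 29 in heart and 103 and 108 in soleus. The mean difference over the pairs was 8.25, 62.8 and 69 probes in the 3 parts, a division chosen after the data were seen. The part that the order of the probes plays in the detection result was not tested.

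**Figure D3:**
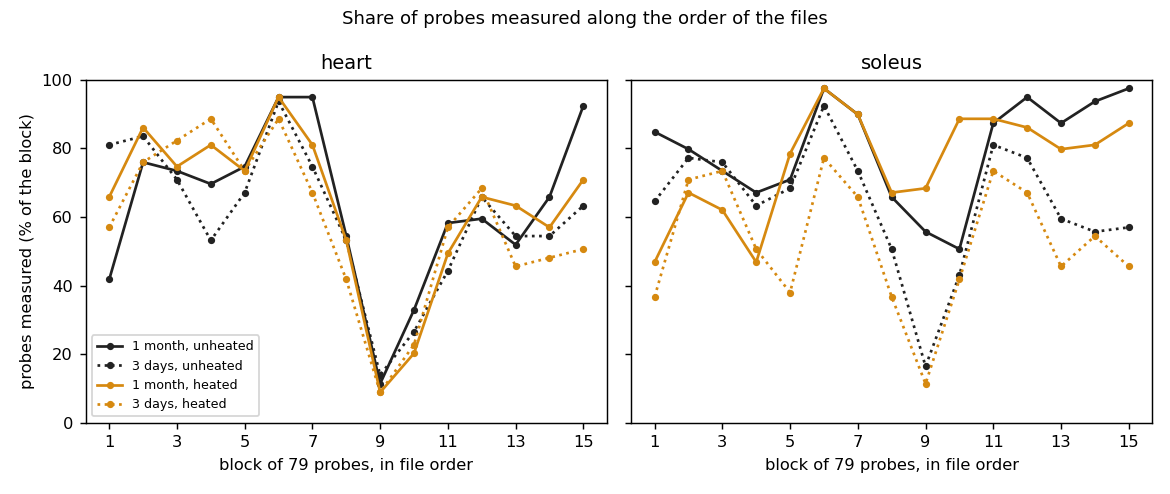
Percent of probes measured (vertical) in 15 consecutive blocks of 79 probes in file order (horizontal), heart left and soleus right, 1 line per sample. Heart samples all drop to between 8.86% and 13.9% in block 9, as do the short soleus samples (16.5% and 11.4%), while the long soleus samples stay at 55.7% and 68.4%.

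For levels, the 8 samples were quantile-normalized and compared on the scale log2(intensity + 1526). On that scale the fold change of a dim probe comes out too small. The tests covered the 641 probes with 4 or more of their 8 values above a common floor of 1774. Values below the floor were raised to it. The model held tissue, heat and duration and left 4 residual degrees of freedom. Because each group is 1 sample and the labels do not say that samples come from separate animals, p-values measure only the spread between these samples. Any difference in the effect of duration between tissues or with heat is not in this model and enters that spread.

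No probe passed for long against short training (0 of 641 at a limma Benjamini-Hochberg adjusted p of 0.05, 0%; lowest adjusted p = 0.424). At an unadjusted p of 0.05, 58 probes remained (9.05%), 30 higher and 28 lower after long training. The effects had a median of 0.00 on the log2 scale, with quartiles of -0.13 and 0.12, and a median standard error of 0.13. Only 13 of the 641 reached a size of 0.5. A count of 0 in this design does not show that long and short training gave the same expression.

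The 2 probes nearest to the threshold on the higher side were R094 and R060. R094 had normalized intensities after long and short training of 5332 and 2829 in unheated heart, and 3370 and 1889 in heated heart. In soleus it lay at 4355 without heat and 2790 with heat after long training, and it was not measured in either short sample. Its log2 effect was 0.60 ± 0.11 (SE; limma adjusted p = 0.424), higher after long training in 4 of 4 pairs. The long and short samples nearly separated, with only the short unheated heart value above the lowest long one.

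R060 lay at 10161 after long and 6434 after short training in unheated heart, and at 7398 and 5662 in heated heart. In soleus it lay at 3278 and 2152 without heat, and at 2627 after long training with heat, where the short sample was empty. Its effect was 0.40 ± 0.09 (SE; limma adjusted p = 0.424), again with 4 of 4 pairs higher. The heart samples were above all soleus samples, so that long and short values overlapped over both tissues but not within either tissue.

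On the lower side stood RG376 and R251, both measured in all 8 samples. RG376 had normalized intensities of 7716, 8734, 6910 and 7861 after long training, in unheated and heated heart and unheated and heated soleus. After short training these were 10399, 11623, 10399 and 10737. All 4 long values lay below all 4 short values, at means of 7805 ± 747 and 10789 ± 578 (SD, n = 4 each). The effect was -0.40 ± 0.09 (SE; limma adjusted p = 0.424). The deposited intensities had the same order in 3 pairs and the opposite one in heated soleus, 8665 after long and 8381 after short training.

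R251 differed more in soleus. After long and short training it lay at 2574 and 4144 in unheated heart and at 4002 and 5109 in heated heart. In soleus it lay at 5890 and 11623 without heat and at 5461 and 11776 with heat. The effect over all samples was -0.62 ± 0.14 (SE; limma adjusted p = 0.424), with 4 of 4 pairs lower after long training. The groups overlapped over both tissues and did not overlap within either.

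**Figure D4:**
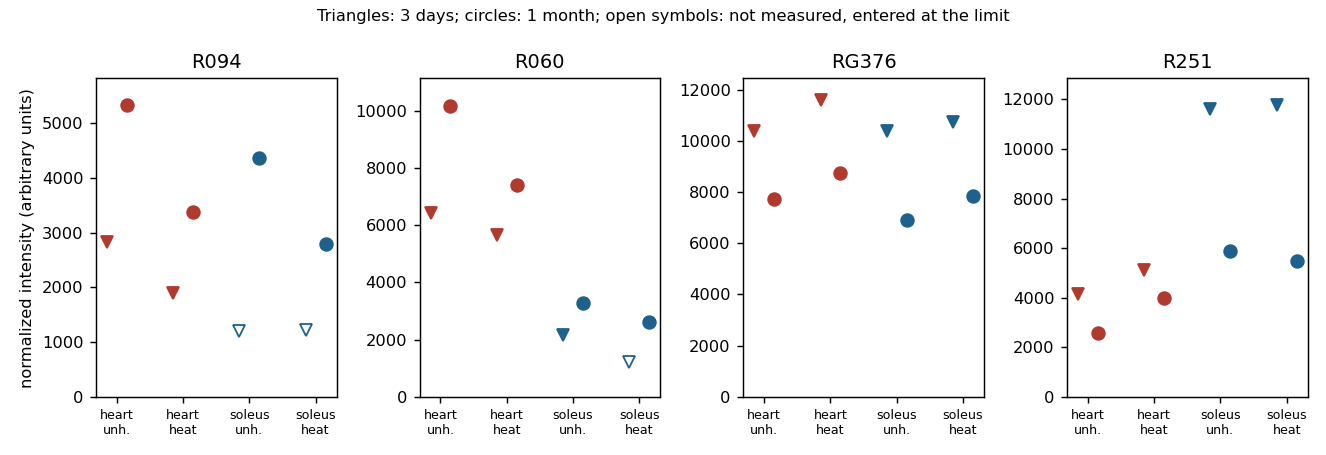
Normalized intensity (arbitrary units) of R094, R060, RG376 and R251 in the 8 samples, heart in red and soleus in blue; triangles are 3 days, circles 1 month, and open symbols samples in which the probe was not measured. In each pair the circle lies above the triangle for R094 and R060 and below it for RG376 and R251; none passed the adjusted threshold.

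Agreement over all pairs was limited. Of the 641 probes, 49 were higher after long training in all 4 pairs (7.64%) and 41 were lower in all 4 (6.4%). All 4 long values lay above all 4 short values for 12 probes (1.87%), and below them for 7 (1.09%). Centring each sample within the 15 blocks of file order, an alternative added after the data were seen, also left 0 of 641 probes past the threshold in limma, with 56 at an unadjusted p of 0.05. The effects of the 4 named probes were then 0.45, 0.30, -0.33 and -0.47.

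Large differences within a pair were rare. Probes measured in both samples of a pair, with at least 1 value at or above its sample's median, were compared, and those whose normalized intensity plus 1526 differed 2-fold were counted. Unheated heart gave 1 higher and 6 lower after long training of 423 (1.65%), and heated heart 5 and 2 of 412 (1.7%). Unheated soleus gave 3 and 3 of 482 (1.24%), and heated soleus 1 and 9 of 424 (2.36%). Over the 4 pairs this was 30 of 1741 comparisons, 33.3% of them higher after long training. Without normalization it was 63, 77.8% of them higher, 43 of them in heated soleus, where the short array was dim. With 1 sample on each side these counts have no test.

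The probes chosen in unheated soleus went the same way in the heated soleus pair, which shares no sample with it. The 3 that were 2-fold higher were higher there too, 3 of 3, at a median of 0.62 on the log2 scale. The 3 that were lower were lower in 3 of 3, at a median of -0.59. All probes compared in that way had a median of 0.03 in the heated pair. In unheated heart 2 of the 3 higher probes were measured, both higher, at a median of 0.12. The 3 lower ones were lower there in 3 of 3, at a median of -0.18. In heated heart both directions turned. There 2 of the 3 higher probes were measured, both lower (median -0.22), and 2 of the 3 lower ones, both higher (median 0.07). The 9 lower in heated soleus were less consistent in unheated soleus, with 7 measured, 4 lower and 3 higher, and a median of -0.27. The 7 from unheated heart, of which 4 were measured in the heated heart pair, showed a median of -0.03 for the lower ones and a value of 0.16 for the higher one. In unheated soleus 5 of the 6 lower ones were measured and 5 of 5 were lower, at a median of -0.07. The 1 higher one was lower there, at -0.77. Of the 5 probes higher in heated heart, 3 were measured in unheated heart, 1 higher and 2 lower there, at a median of -0.29. In unheated soleus 4 of these 5 were measured, all 4 lower, at a median of -0.18. In heated soleus 2 were measured, 1 higher and 1 lower. For every list, all probes compared had a median between -0.03 and 0.04 in the pair where the list was followed. For the lists from unheated heart it was -0.03 in heated heart and 0.00 in unheated soleus. These lists are short and serve as a description.

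Across probes, the differences between long and short training correlated more within a tissue than between tissues. Over the 416 probes measured in all samples, Spearman's rho between the changes in the unheated and heated pairs was 0.36 in soleus and 0.22 in heart. Between a heart pair and a soleus pair it ran from -0.06 to 0.04 over the 4 combinations. These are correlations across probes, which are not independent replicates, and the pairs share the normalization but no sample. On deposited intensities rho was 0.37 in soleus and 0.26 in heart, and -0.08 to -0.01 between tissues. After centring within the blocks of file order it was 0.32 in soleus and 0.24 in heart, and -0.14 to 0.02 between tissues. The sign of the change matched in 60.6% of the 416 probes between the soleus pairs and in 53.1% between the heart pairs. Between a heart pair and a soleus pair it matched in 45.0% to 50.5%, so by sign the heart pairs stood only slightly above these.

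**Figure D5:**
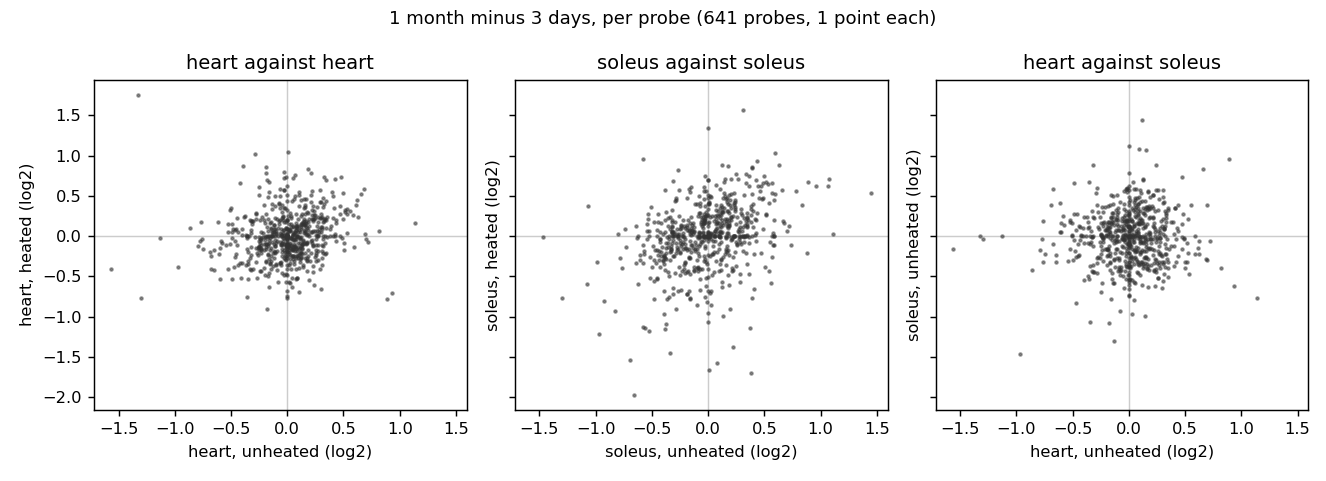
Long minus short difference of each of the 641 tested probes (log2 scale), in the unheated against the heated heart pair (left), the unheated against the heated soleus pair (middle) and the unheated heart against the unheated soleus pair (right). The middle cloud is tilted upward, the right one is not; rho over all 641 is 0.20, 0.35 and 0.01 from left to right.

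Whether the change with duration differed between the tissues was tested as a product of tissue and duration. No probe passed (0 of 641, 0%; limma lowest adjusted p = 0.311), and 69 had an unadjusted p under 0.05 (10.8%). On the lower side, RG072 had the largest statistic. It lay in heart at 1839 and 1905 after long and at 1649 and 1952 after short training, without and with heat, which is within the same narrow range. In soleus it lay at 5221 and 6152 after short training, at 1913 after long unheated training, and was not measured after long heated training. The difference of its change, soleus minus heart, was -1.10 ± 0.18 (SE; limma adjusted p = 0.311). RG050, a bright probe, lay in soleus at 10737 and 12209 after long and at 17386 and 19267 after short training. In heart it lay at 13136 and 15268 after long and at 10997 and 13263 after short training. Its difference was -0.82 ± 0.17 (SE; limma adjusted p = 0.311), and -0.51 when samples were centred within blocks of file order. In both heated pairs its deposited intensities had the opposite order. They were 12176 after long and 14604 after short training in heart, and 15494 and 14583 in soleus.

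On the opposite side, RG400 lay in heart at 1793 and 1572 after long and at 3788 and 2842 after short training. In soleus it lay at 5993 and 3749 after long and at 3482 and 3079 after short training. The soleus minus heart difference was 0.93 ± 0.22 (SE; limma adjusted p = 0.311). R487 lay in heart at 6793 and 4115 after short training, at 1847 after long unheated training, and was empty after long heated training. In soleus it was 3103 after long and 3224 after short training without heat. With heat it was 1275 after long training and empty after short training. Its difference was 1.02 ± 0.24 (SE; limma adjusted p = 0.311). In each tissue where the long and short values of these 4 probes lay farther apart, the normalized values without and with heat had the same direction, which for RG050 does not hold in the deposited values. For R487 and RG072, 1 of those values is an empty cell. Over all 641 probes, 32 were higher after long training in both soleus pairs and lower in both heart pairs, and 47 were the reverse. These counts are of similar size to the 49 higher and 41 lower in all 4 pairs, and were not tested.

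Heat was examined in the same manner, as a product of heat and duration. No probe passed (0 of 641, 0%; limma lowest adjusted p = 0.998), and 7 had an unadjusted p under 0.05 (1.09%). The median standard error of this difference was 0.27, so that moderate differences lay within the error. The product of tissue and duration was not in this model and enters that error. RG334 lay at 6728 and 6306 after long heated training and at 2998 and 5500 after short heated training, in heart and soleus. Without heat the values were 2870 and 3810 after long and 4256 and 6258 after short training. The heated minus unheated difference was 0.98 ± 0.28 (SE; limma adjusted p = 0.998). R655 gave 1.02 ± 0.28 (SE; limma adjusted p = 0.998). Without heat it lay at 1610 after long and 4934 after short training in heart, and at 1845 and 7803 in soleus. With heat it was 2769 after short training in heart, where the long sample was empty, and 3878 and 3829 after short and long training in soleus. The deposited intensities of R655 in heated soleus were farther apart, 2920 after short and 4404 after long training.

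R227 had a difference of -1.003 ± 0.42 (SE; limma adjusted p = 0.998). Without heat it lay at 5395 after long and 2220 after short training in heart, and at 9425 and 4122 in soleus. With heat it lay at 6793 and 3886 in soleus, whereas in heart it was 4160 after short training and empty after long training. Both R655 and R227 thus rest in part on an empty cell of the long heated heart sample. RG485, with -0.57 ± 0.23 (SE; limma adjusted p = 0.998), was measured in 4 of 4 long and 2 of 4 short samples. It lay at 3878 and 1598 in heart and 3375 and 1227 in soleus after long training without and with heat. In the short samples it lay at 2846 and 2459 in heart and was empty in soleus.

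Set beside the other factors of the design, duration had about the same spread as heat and a smaller one than tissue. The SD of the log2 difference over the 641 probes was 0.289 and 0.301 between the long and short heart samples, and 0.340 and 0.417 between the long and short soleus samples. Between samples that differed only in heat it ran from 0.285 to 0.364, and between those that differed only in tissue from 0.459 to 0.518. Spearman's rho over the 416 common probes was 0.834 to 0.905 between samples that differed only in duration, and 0.867 to 0.914 for heat alone. It was 0.735 to 0.784 for tissue alone. In soleus, samples that differed in both heat and duration had a rho of 0.82 and 0.83, against 0.834 to 0.896 for those that differed in 1 of them. These figures compare single samples and have no test.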

How the data were processed

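Per the labels' protocols, total RNA was isolated with Tri-Reagent and pooled, and targets were labelled with radioactive dATP by a Clontech protocol. The authors' deposited per-sample files hold intensity values on a linear scale in arbitrary units. In 3 of the 8 files some lines hold a probe and no second cell, so their unit was recorded as other although the values are deposited intensities of the same kind. The sources used here do not name the image software, the background step or any scaling of one array to another. A table of the whole series, also deposited, gives relative intensities with the same empty cells and medians of 0.722 to 1.115 per sample. They rank the probes of a sample as the per-sample files do (Spearman's rho 0.955 to 0.999), their scale and centring stay unknown, and they served as an alternative.

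Cells under 1200 or empty were entered at 1200, and quantile normalization (limma 3.58.1, R 4.3.3) was run over the 8 exercised samples. The highest of the samples' lowest measured values, 1774, was the common floor. The pseudocount, 1526, is the 10th percentile of the deposited intensities. limma models (lmFit, eBayes; two-sided, Benjamini-Hochberg over 641 probes at 0.05) were fitted to log2(value + 1526). The fits were also run on simulated data with planted changes and independent noise. That run checked the direction of recovered changes and not the error rates in these arrays. Exact permutation tests swapped long and short within the 4 pairs. The number of arrays limits the precision.

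For each fitted comparison, the 2 probes per direction with the largest moderated statistic were named. For detection, those brightest among probes measured in all long and no short samples were named, and per tissue where the reverse was empty. The gene lists and markers planned could not be used, since no probe has a gene name here. The samples, lists and rules were chosen with earlier results of these data known. Alternatives covered scaling, floor, filter, pseudocount, the series table, moderation, sample weights, pairs as a block and left-out samples.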

Additional observations from a re-analysis of the deposited data

Results flagged for a closer look

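The 4 long and the 4 short samples, which each mix heart and soleus, were examined for a sample far from the other 3 in 23 cases (the numbers of probes, the medians and the named probes measured in all 4). In 2 cases the gap to the nearest sample exceeded Dixon's 95% critical share of the range, which chance alone does in about 1 of 20. The normalized intensity of R227 after short training was 2220 in unheated heart, against 3886 to 4160 in the other 3 short samples. That of R713 was 3375 in short unheated soleus, against 2364 to 2436 in the others. In the deposited intensities the other 3 short samples lay farther apart. R227 was 2169 in short unheated heart, against 2924 to 4847, and R713 was 3887 in short unheated soleus, against 1824 to 2403.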

How the results depend on the processing

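Of the alternatives, 28, 19 and 19 were run for long against short training, the tissue difference and the heat difference. The count past the threshold stayed at 0 with limma in 27, 19 and 18 of them, with unadjusted counts of 7 to 68, 42 to 94 and 2 to 31. The exceptions were the unheated samples alone, with 1 residual degree of freedom, where 2 probes passed (R655 with an effect of -1.29 and R227 with 0.94), and no filter on low values, where 1 passed for the heat difference (RG071, -0.30, measured in 5 of 8 samples; probes at the floor throughout, which have no spread, enter that setting). These 3 were named after their values were seen. With the pairs of tissue and heat as a block the count was 0, with 57 unadjusted. Without normalization the median of all probes shifted by 0.26 for the tissue difference and by 0.17 for the heat difference. All 12 named effects kept their sign where they could be computed. R251 ran from -0.91 to -0.38, R094 from 0.30 to 0.92, RG376 from -0.50 to -0.28 and R060 from 0.23 to 0.55. For the tissue difference, R487 ran from 0.53 to 1.52, RG400 from 0.47 to 1.41, RG072 from -1.63 to -0.57 and RG050 from -0.91 to -0.26. For the heat difference, R655 ran from 0.56 to 1.45, RG334 from 0.56 to 1.32, RG485 from -0.92 to -0.27 and R227 from -1.57 to -0.53.

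The 30 differences of 2-fold became 63 without normalization, 117 without the pseudocount, 4 with both samples at or above the median, and 187 at 1.5-fold. The difference in probes measured turned to -1.75 at a limit of 5000 and was 31.8 at 3000. Without the heated soleus pair these were -33.7 and -22. At 1200 it was 95.3 to 173 with a pair left out. The log2 ratio of medians ran from -0.14 to 0.15 with a pair left out. Measured in all long and no short samples were 4 probes at 2000 and 2 at 3000. The heart counts of both long and of both short samples were 22 and 18 at 2000 and 14 and 18 at 3000, and the soleus counts 51 and 2, and 25 and 3. With the limit after scaling, soleus gave 54 and 16. Except where a setting changes how many probes or samples enter, the cause was not tested. Empty cells limit what can be said of dim probes.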

Other observations

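Of the 1185 probes, 118 were empty in exactly 1 of the 8 samples. The short heated soleus sample held 42 of these and the long heated soleus sample 29, against 3 to 12 in each of the other 6. In the long heated soleus sample, 17 of the 29 lay at 2000 or more in all the other 7 samples, and 9 of them at 3000 or more. That sample had the second highest number of probes measured, 897. In the short heated soleus sample, with 623 probes measured, 13 of its 42 lay at 2000 or more in all other samples and 5 at 3000 or more. The long unheated soleus sample, with 945 probes measured, had 3 such cells, 1 of them at 2000 or more elsewhere.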
